A study of Mus musculus with 12 samples.

Results

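Mouse embryonic kidney at gestational day 13 (E13) was compared with kidney at gestational day 12 (E12) on a membrane array of the Notch pathway, 2 neighbouring stages at which the ureteric bud is branching. The 3 arrays titled E13 and the 3 arrays titled E12 made up 6 of the 12 arrays of the series, chosen by their titles and not by any measured value. All 120 gene spots, which stand for 118 genes, were taken, and control spots served only to set the background. The other 6 arrays, of gestational days 14, 16 and 18 (E14, E16, E18), entered the normalization and the choice of genes tested. They also entered the estimate of the spread between arrays and the levels given for later stages.

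Both groups were whole embryonic kidney, and no strain, genotype, allele or treatment was given in the sources used here. By their labels the arrays within a stage are technical replicates, and how many embryos lie behind them is not stated. Every p-value below therefore measures only the spread between arrays. RNA was amplified and labelled with biotin before hybridisation, and each spot has 1 intensity, called its signal. Median gene signal was 4549.5 to 9556 on the E13 arrays and 4435 to 6514 on the E12 arrays, or 3.20 to 7.02 and 2.81 to 5.93 times the mean of the negative controls. A gene counted as above background on an array when it read more than 2 SD over the mean of the 6 negative controls, which 94 to 109 genes did on E13 arrays and 101 to 112 on E12 arrays. Arrays of the same stage were no more alike than arrays of different stages: Pearson's r across the 106 tested genes was 0.911 to 0.958 over the 9 pairs of an E13 and an E12 array, and 0.897 to 0.944 over the 6 pairs within a stage.

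Notch receptors are membrane proteins that are activated by Jagged or Delta-like ligands on a neighbouring cell. Bound receptor is cut by an ADAM protease and then by the gamma-secretase complex, and the freed intracellular part joins the DNA-binding protein Rbpj to switch on genes such as the Hes and Hey repressors. In the kidney, the ureteric bud grows out from the nephric duct into the metanephric mesenchyme and branches to form the collecting system, while the mesenchyme around its tips forms nephrons. Notch signalling is known there for its part in nephron formation, in particular of proximal segments. The array held no gene of the fixed marker lists for nephron progenitors or kidney stroma, and of the ureteric bud list only Wnt11, a Wnt ligand made at bud tips. Wnt11 was above background on all 6 arrays, with signals of 6906, 6093 and 7553 at E13 and 6755, 4400 and 5970 at E12, so the tissue label could be set against this marker alone.

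The bases upstream of 3 genes that recur below are shown for their sites of the Rbpj core motif TGGGAA, searched on both strands. Jag1 had the smallest p-value of the comparison, Hes5 is a classical Notch target, and Krt14 was the gene with the most negative difference. Each sequence is the 250 bases before the RefSeq start on build GRCm38.p6, read 5′ to 3′ on the gene's strand, with the motif in capitals.
Jag1 (chr2:137116521-137116770, minus strand): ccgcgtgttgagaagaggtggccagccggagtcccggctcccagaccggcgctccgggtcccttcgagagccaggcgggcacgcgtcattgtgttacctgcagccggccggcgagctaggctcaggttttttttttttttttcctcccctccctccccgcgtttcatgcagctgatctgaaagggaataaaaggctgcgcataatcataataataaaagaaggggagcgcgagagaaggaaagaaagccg
Hes5 (chr4:154960673-154960922, plus strand): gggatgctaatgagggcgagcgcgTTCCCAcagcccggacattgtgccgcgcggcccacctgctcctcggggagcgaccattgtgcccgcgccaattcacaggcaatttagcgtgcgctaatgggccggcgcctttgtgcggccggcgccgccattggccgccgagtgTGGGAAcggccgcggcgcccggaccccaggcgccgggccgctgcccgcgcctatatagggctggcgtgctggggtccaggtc
Krt14 (chr11:100206031-100206280, minus strand): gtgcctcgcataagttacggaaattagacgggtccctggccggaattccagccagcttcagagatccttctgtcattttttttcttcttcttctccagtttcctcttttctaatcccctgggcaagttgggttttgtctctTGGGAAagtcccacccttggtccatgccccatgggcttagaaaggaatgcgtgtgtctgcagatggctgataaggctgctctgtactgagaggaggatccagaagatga

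In these windows the motif occurred 2 times before Hes5, 1 time before Krt14 and 0 times before Jag1. Of 109 RefSeq promoters of 88 array genes, 21 held it (19.3%), against 7094 of all 32851 mouse promoters of the same length (21.6%). The E-box CACGTG, a motif that Hes and Hey proteins can bind, was in 6.4% of the promoters of array genes and in 6.0% of all promoters, and the N-box CACNAG in 35.8% and 36.7%. These are matches of letters only.

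Of the 106 genes tested between E13 and E12, 0 passed the test (0% higher and 0% lower, limma, Benjamini-Hochberg adjusted p under 0.05), and 5 (4.72%) had an unadjusted p under 0.05. Those 5 were Jag1 and Numb, which had positive differences, and Fzd2, Krt14 and Ifng, which had negative ones. Signals were corrected for background, normalized by quantiles and put on the log2 scale, and a difference is the E13 mean minus the E12 mean in log2 units. The median difference over all 106 genes was -0.03, the median size of a difference was 0.22, and the median SE was 0.27. Differences were above 0 for 48 genes (45.3%) and below 0 for 58 (54.7%). Of the alternative scalings, housekeeping scaling and no normalization add 1 constant, 0.07 and 0.24, to every difference under scaling to array medians. A sign that turns under those settings alone is no change relative to the other genes.

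**Figure D1:**
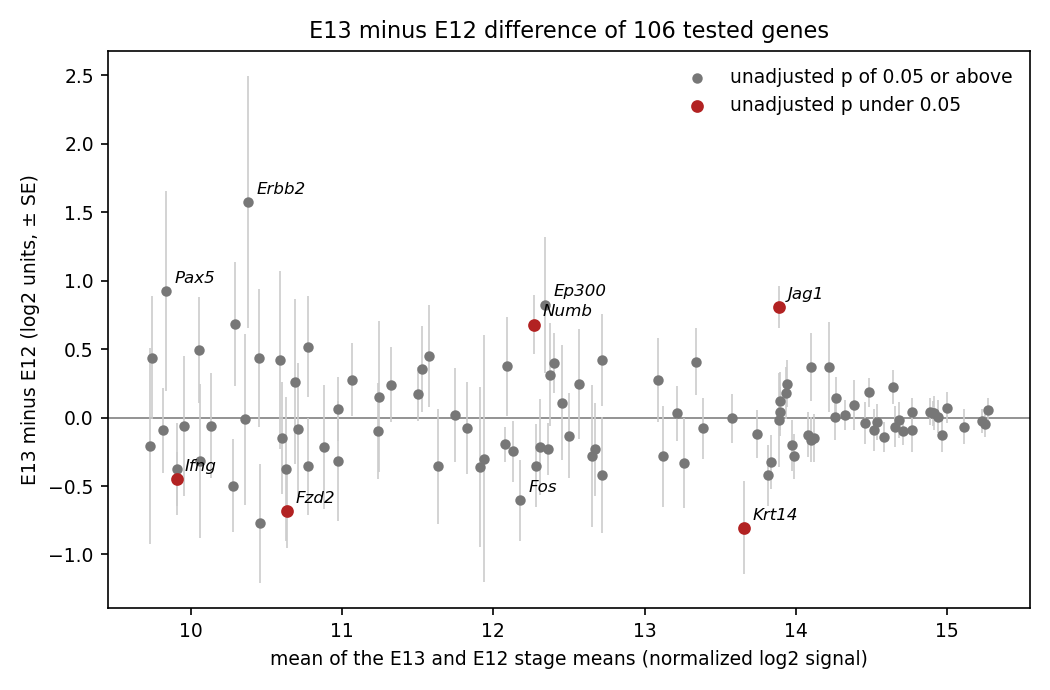
Each point is 1 of the 106 tested genes, with the mean of its E13 and E12 stage means on the x axis (normalized log2 signal) and its E13 minus E12 difference on the y axis (log2 units, bars show the SE). Jag1, Numb, Fzd2, Krt14 and Ifng, in red, had an unadjusted p under 0.05, and the SE bars are widest among dim genes such as Erbb2 and Pax5.

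Jag1, a Notch ligand of the Jagged family that is made in the developing nephron, came closest to the threshold. Its signal was 23263, 21262 and 25636 on the E13 arrays, against 12301, 8442 and 11411 on the E12 arrays. Every E13 signal therefore lay above every E12 signal before any correction. After normalization its log2 values were 14.54, 14.15 and 14.19 at E13 and 13.68, 13.42 and 13.37 at E12, a gap of 0.47 between the groups. Stage means were 14.29 ± 0.21 at E13 and 13.49 ± 0.17 at E12 (SD, n = 3 each). The difference of 0.81 (SE 0.15, 95% interval 0.46 to 1.15), a fold of 1.75, had an unadjusted p of 0.000557 and did not pass the test (limma adjusted p = 0.059). With the replicate number as a block the limma adjusted p was 0.18, and an exact permutation test over the 6 arrays gave p = 0.1, the smallest that 3 arrays against 3 allow. By rank among the 118 genes, Jag1 was at 19, 29 and 28 at E13 and at 40, 44 and 45 at E12.

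The Jag1 difference stayed above 0 under all 20 other processing settings tried, between 0.67 and 1.17 log2 units, and its adjusted p lay between 0.0218 and 0.989. It passed the test in 3 of them: with no background correction (0.76, limma adjusted p = 0.0497), among the 86 genes above background on all 6 arrays (0.81, limma adjusted p = 0.0353) and with a prior spread that follows the mean signal (0.81, limma adjusted p = 0.0218). In those 3 settings Jag1 was also the 1 gene that passed. Leaving out each of the 6 arrays in turn gave differences of 0.71 to 0.93 with limma adjusted p of 0.064 to 0.326.

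**Figure D2:**
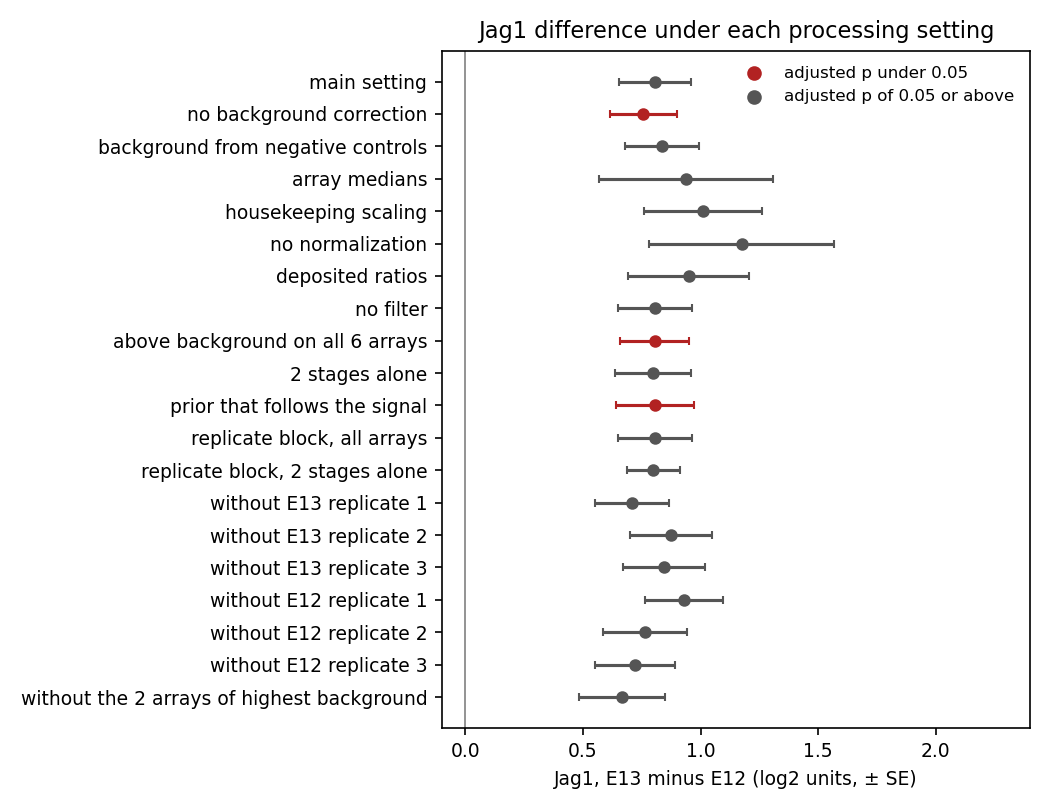
The E13 minus E12 difference of Jag1 (x axis, log2 units, bars show the SE) is drawn for the main setting and 19 alternatives, one per row; the setting without the array of highest background equals that without E12 replicate 2 and is not repeated. All points lie between 0.67 and 1.17, and the 3 in red have an adjusted p under 0.05.

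Groups that did not overlap were seen for 5 of 106 genes (4.72%), with 3 higher at E13 (2.83%) and 2 lower (1.89%). The 3 higher were Jag1, Numb and Ppia, and the 2 lower were Fzd2 and Gapdh. Numb, an endocytic adaptor that restrains Notch and is shared unequally in some cell divisions, had log2 values of 12.90, 12.54 and 12.39 at E13 and 12.08, 11.69 and 12.02 at E12. Its means were 12.61 ± 0.26 at E13 and 11.93 ± 0.21 at E12 (SD, n = 3 each), a difference of 0.68 (SE 0.22, 95% interval 0.19 to 1.17) that did not pass (unadjusted p = 0.0127, limma adjusted p = 0.671). Fzd2, a Frizzled receptor for Wnt ligands, had log2 values of 10.57, 9.80 and 10.51 at E13, all below the values of 10.81, 11.32 and 10.81 at E12. It differed by -0.68 (SE 0.27, limma adjusted p = 0.867) and was above background on 2 of 3 E13 arrays and on 3 of 3 E12 arrays, so the E13 level rests partly on a value near background. Ppia and Gapdh, housekeeping genes at the top of the signal range, differed by 0.06 (SE 0.09) and -0.05 (SE 0.09). With array medians Ppia was at -0.03 and Gapdh at -0.18; Gapdh was above 0 only with no normalization (0.05, against a median of 0.22 over all genes there).

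Krt14, a keratin of basal epithelial cells, had log2 values of 13.68, 13.14 and 12.95 at E13 and 14.04, 14.59 and 13.55 at E12. The groups overlapped at 1 array each, E13 replicate 1 and E12 replicate 3. Its means were 13.26 ± 0.38 at E13 and 14.06 ± 0.52 at E12 (SD, n = 3 each), a difference of -0.81 (SE 0.34, unadjusted p = 0.0422, limma adjusted p = 0.867). Ifng, the cytokine interferon gamma, had log2 values of 10.04, 9.70 and 9.30 at E13 and 10.23, 10.04 and 10.12 at E12, a difference of -0.45 (SE 0.20, unadjusted p = 0.0496, limma adjusted p = 0.867). It was above background on 1 of 3 E13 arrays and on 3 of 3 E12 arrays. Next in order of p were Fos, an immediate early transcription factor, at -0.60 (SE 0.30), Supt6h, a transcription elongation factor, at -0.42 (SE 0.22), Lmo2, a regulator of blood and vessel lineages, at 0.23 (SE 0.12), and Nrarp, a feedback inhibitor of Notch, at 0.40 (SE 0.22).

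**Figure D3:**
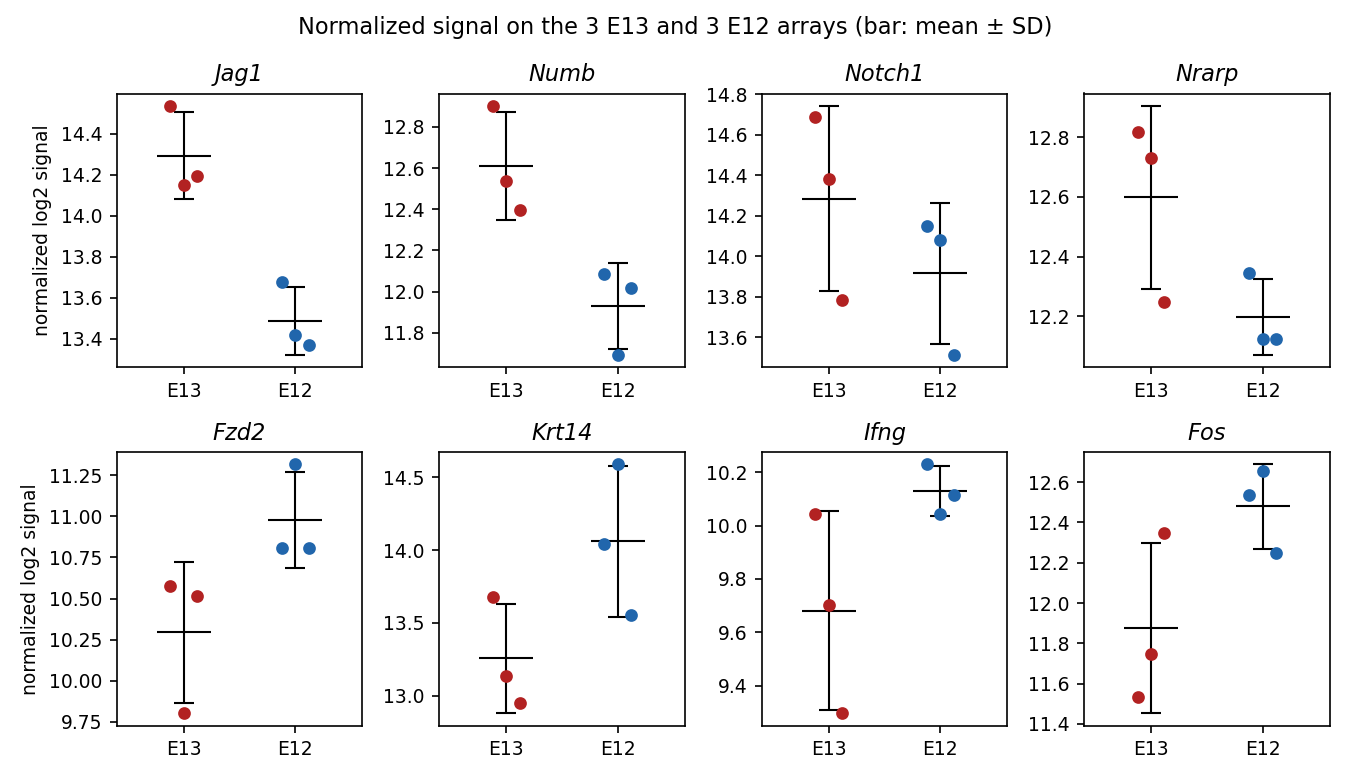
Normalized log2 signal (y axis, scaled per gene) of 8 genes on the 3 E13 arrays (red, left) and the 3 E12 arrays (blue, right), with the mean and SD in black; within a group the points stand in the order of replicates 1 to 3. The groups are apart for Jag1, Numb and Fzd2 and overlap or touch for the other 5.

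Among the 5 ligands, 0 passed the test in either direction, and the median difference was 0.15, against -0.03 over all tested genes. That median was not stable: it was -0.20 without E13 replicate 3, -0.13 without E12 replicate 1, 0.39 without E12 replicate 2 and -0.01 with array medians. With the 2 stages alone, where Jag2 was not tested, it was -0.08 over 4 ligands. Jag2, the other Jagged ligand, was above background on 2 of 3 E13 arrays and on 1 of 3 E12 arrays, and differed by 0.44 (SE 0.45). The Delta-like ligands Dll1, Dll3 and Dll4 differed by 0.15 (SE 0.55), -0.28 (SE 0.37) and -0.32 (SE 0.44). The sign of these 3 was not fixed by the data: Dll1 was at -0.20 without E13 replicate 3, Dll3 at 0.12 without E13 replicate 1 and E12 replicate 2 together, and Dll4 at 0.05 without E12 replicate 3.

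Of the 4 receptors, 0 passed. Notch1 had signals of 24462, 24483 and 19470 at E13 and 15315, 12925 and 12013 at E12, higher at E13 on every array. After normalization the groups overlapped, with log2 values of 14.68, 14.38 and 13.78 at E13 and 14.15, 14.08 and 13.51 at E12. The difference was 0.37 (SE 0.25, 95% interval -0.20 to 0.94, limma adjusted p = 0.867), and each same-numbered pair had a positive difference, of 0.53, 0.30 and 0.27. Leaving out 1 array moved it between 0.17 (without E13 replicate 1 or E12 replicate 3) and 0.62 (without E13 replicate 3). Notch4, the receptor of endothelial cells, differed by 0.31 (SE 0.38), Notch3 by 0.27 (SE 0.31) and Notch2 by -0.23 (SE 0.34). Notch2, which is known for its role in proximal nephron formation, was at 0.03 without E13 replicate 2 and -0.60 without E13 replicate 3.

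Proteases that cut the receptor had 0 of 7 members past the test, and their median difference was 0.03. The sheddases Adam10 and Adam17 differed by 0.43 (SE 0.51) and -0.03 (SE 0.13). Of the gamma-secretase subunits, the presenilin Psen2 was at 0.37 (SE 0.36), the subunit Psenen at 0.14 (SE 0.16), nicastrin, Ncstn, at 0.01 (SE 0.12) and Aph1a at -0.20 (SE 0.19). The bright members had narrow intervals: that of Ncstn ran from -0.26 to 0.27 and that of Adam17 from -0.33 to 0.27. Quantile normalization fixes the set of values on each array, so these intervals hold for the normalized values only. Whether it narrowed them was not tested. Adam10, which varied more between arrays, had an interval from -0.71 to 1.58, and its difference was 0.0024 without E12 replicate 1 and 0.90 without E13 replicate 1.

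Enzymes that add sugars to Notch had 0 of 4 members past the test. The fringe glycosyltransferase Lfng differed by 0.68 (SE 0.45), and this value rested on E12 replicate 2: the log2 values were 10.66, 10.51 and 10.73 at E13 and 10.91, 8.76 and 10.18 at E12. Lfng was above background on 3 of 3 E13 arrays and on 2 of 3 E12 arrays. Its signal of 1188 on E12 replicate 2 lay below the lowest negative control of that array (1307). Without that array the difference was 0.09 (SE 0.24), and without E12 replicate 1 it was 1.17 (SE 0.37). The other fringe genes, Rfng and Mfng, differed by -0.38 (SE 0.53) and -0.06 (SE 0.38). Rfng was above background on 2 of 3 E13 and 3 of 3 E12 arrays, and Mfng on 1 of 3 and 2 of 3. Leaving out 1 array moved Rfng between -0.79 (without E12 replicate 2) and 0.14 (without E13 replicate 1), and Mfng between -0.45 and 0.31. For the O-fucosyltransferase Pofut1 the difference was -0.02 (SE 0.34). Of the 8 genes of trafficking and turnover, 0 passed. Beside Numb, its relative Numbl was at 0.00 (SE 0.18). The ubiquitin-ligase genes of the Deltex family, Dtx1, Dtx2 and Dtx3, were at 0.18 (SE 0.19), 0.04 (SE 0.18) and 0.03 (SE 0.09). Neurl, a Neuralized ubiquitin ligase, was at -0.23 (SE 0.19), Sel1l, a component of protein degradation at the endoplasmic reticulum, at -0.15 (SE 0.17) and the ubiquitin ligase Cbl at -0.01 (SE 0.62).

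The 6 Hes and Hey repressors, a family that holds direct targets of Notch, had 0 members past the test and a median difference of 0.03. Hes1 was among the most even genes, with log2 values of 14.66, 14.68 and 14.63 at E13 and 14.66, 14.80 and 14.80 at E12. Its difference was -0.10 (SE 0.10) with an interval from -0.33 to 0.14, and those of Hes6 (0.04, interval -0.18 to 0.26) and Hey1 (0.02, interval -0.23 to 0.27) were similarly narrow. The narrow intervals of the bright genes Hes1, Hes6 and Hey1 likewise hold for the normalized values only. The dimmer Heyl, Hes5 and Hey2 had differences of 0.36 (SE 0.31), 0.11 (SE 0.42) and -0.22 (SE 0.35). Hes5 shows the array spread at E12, where its log2 values were 11.69, 13.30 and 12.20, against 12.65, 12.39 and 12.47 at E13. Over the 34 tested genes of these 6 core groups the median difference was 0.03, with 20 above 0 and 14 below 0.

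**Figure D4:**
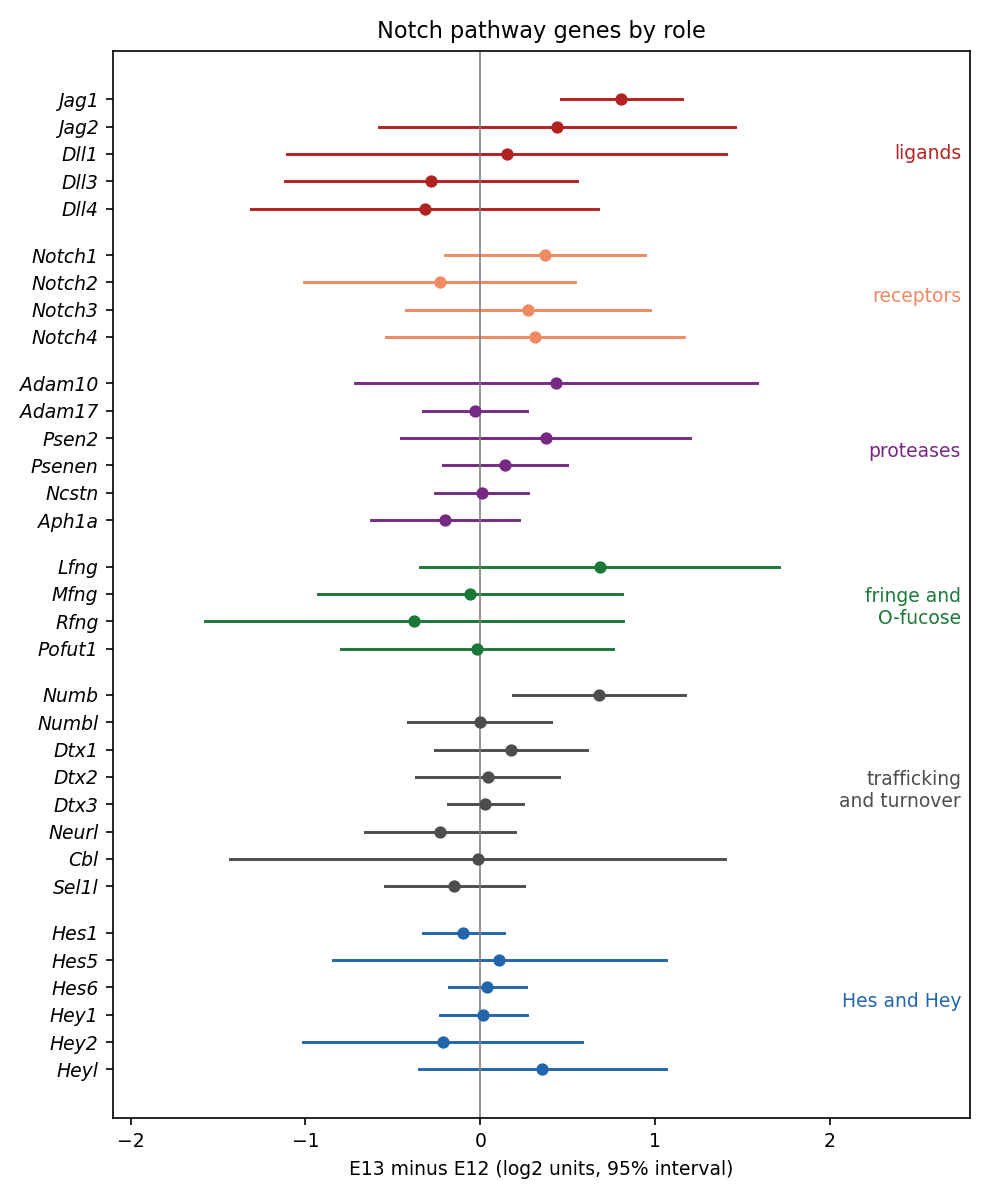
E13 minus E12 differences (x axis, log2 units, lines show the 95% interval of limma) of 33 Notch pathway genes grouped by role. The intervals of Jag1 (0.46 to 1.15) and Numb (0.19 to 1.17) lie above 0, and those of the other 31 genes include 0.

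Nuclear partners of Notch had 0 of 5 co-activators and 0 of 6 co-repressors past the test. Ep300, a histone acetyltransferase that works with the Notch transcription complex, was at 0.82 (SE 0.50). Its log2 values were 13.14, 12.47 and 12.65 at E13 and 11.45, 11.45 and 12.90 at E12, so E12 replicate 3 lay within the E13 range. Without that array the difference was 1.30 (SE 0.43). Among co-repressors, the Groucho-related Aes was at -0.14 (SE 0.11). Rbpj itself, outside the rule for named genes, was at 0.12 (SE 0.21).

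The remaining pathways of the array had 0 genes past the test. Hedgehog genes had 1 of 6 tested members above 0 and a median of -0.12, with the transcription factors Gli1 at -0.33 (SE 0.20) and Gli3 at -0.16 (SE 0.16). With array medians 3 of 6 were above 0 and the list lay 0.01 above the median of all genes, and without E13 replicate 1 the list median was 0.06. Shh and Ptch1, the ligand and its receptor, were not tested, since neither was above background on every array of any stage. Wnt genes had 4 of 14 above 0 and a median of -0.11, with Fzd7, another Frizzled receptor, at -0.50 (SE 0.34) beside Fzd2. Leaving out 1 array moved the list median between -0.26 (without E12 replicate 3) and -0.03 (without E13 replicate 3), and it was 0.06, with 8 of 14 above 0, without E13 replicate 1 and E12 replicate 2 together. The 4 genes of NF-kB and survival were all above 0, with a median of 0.31 over the list. Nfkb1 and Nfkb2, subunits of NF-kB, differed by 0.19 (SE 0.11) and 0.25 (SE 0.17), and Chuk and Cflar, a kinase that activates NF-kB and an inhibitor of caspase-8, by 0.37 (SE 0.33) and 0.42 (SE 0.65). Chuk and Cflar lie outside the naming rule and are given to complete the list. With array medians and the deposited ratios all 4 were above 0 too, but without E12 replicate 1 only 2 did and the median was 0.09. Of the cytokine genes, Il6st, a shared receptor subunit of the interleukin-6 family, was at 0.42 (SE 0.34). Pparg, a nuclear receptor of lipid metabolism, was at 0.24 (SE 0.28), but at 0.01 with array medians, -0.0039 with the deposited ratios and 0.06 without E12 replicate 2. Figf, a vessel growth factor now called Vegfd, was at -0.28 (SE 0.16).

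Of the 6 epidermal genes 0 passed the test, and all 6 differences were below 0. The median over the list was -0.26, against -0.03 over all tested genes, and the summed signal of the list was 38450 to 61319 at E13 and 46848 to 50507 at E12. Beside Krt14, its keratin partner Krt5 differed by -0.77 (SE 0.43), with log2 values of 10.86, 9.38 and 9.97 at E13 and 11.10, 11.12 and 10.30 at E12. Krt5 was above background on 2 of 3 E13 and 3 of 3 E12 arrays, and its signal of 1001 on E13 replicate 2 lay under the limit of 1286. Lor, a cornified-envelope protein, Krt1, Krt10 and Ivl, named outside the rule to complete the list, were at -0.33 (SE 0.33), -0.20 (SE 0.12), -0.12 (SE 0.18) and -0.09 (SE 0.31). Ivl was above background on 2 of 3 E13 and 1 of 3 E12 arrays. Relative to the median of all genes the list lay at -0.24, and at -0.17 with array medians, housekeeping scaling and no normalization alike, where 6, 4 and 3 of 6 were below 0. Leaving out 1 array moved the list median between -0.36 and -0.21. In whole-tissue RNA, fewer cells of a type and less RNA per cell cannot be told apart. Of the other marker lists, endothelium (Notch4 and Dll4) had a summed signal of 7249 to 13027 at E13 and 5968 to 8914 at E12. The blood-cell list (5 genes) had 35368 to 46502 at E13 and 29678 to 34090 at E12. Most of that sum was Lmo2, at 27308, 27677 and 39498 at E13 and 21125, 20631 and 24346 at E12. After normalization the median difference of the blood-cell list was 0.12. Leaving out 1 array moved it between -0.24 (without E12 replicate 3) and 0.28 (without E12 replicate 2). The endothelial median was -0.0021, and -0.21 and 0.24 without the same arrays, E12 replicate 2 and E12 replicate 3. The neuronal marker Mtap1b, now Map1b, had 2334 to 7895 at E13 and 2366 to 3519 at E12, with a difference of 0.45 (SE 0.37). Of the blood-cell list, Il2ra was above background on 1 of 3 E13 and 2 of 3 E12 arrays, Runx1 on 3 and 1, and Pax5 on 3 and 2. Lmo2, Ptcra, Notch4, Dll4 and Mtap1b were above background on all 6 arrays. The part of these cell types in the differences above was not tested. These sums are of signals before normalization, and E13 replicate 1 had both the highest median gene signal of the 6 arrays and the highest negative controls.

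Dim genes had larger differences and larger spread. In the dimmest 36 genes the median SD between arrays was 0.45 log2 units at E13 and 0.53 at E12, in the next 35 it was 0.35 and 0.33, and in the brightest 35 it was 0.12 and 0.14. Differences larger than 0.5 in size were found for 6 genes of the dimmest group, 5 of the middle group and 0 of the brightest. The largest difference of all, that of Erbb2, a receptor tyrosine kinase of the EGF receptor family, was 1.58 (SE 0.92). Its signals were 5740, 1799 and 2809 at E13 and 370, 1890 and 2806 at E12, and the 370 of E12 replicate 1 lay below the lowest negative control of that array (896). Without that array the difference was 0.45 (SE 0.61), and without E12 replicate 3 it was 2.55 (SE 0.77). Pax5, a B-cell transcription factor, likewise had 1 spot below all controls, with signals of 3736, 1744 and 1462 at E13 and 2182, 2175 and 33 at E12. Its difference of 0.92 (SE 0.73) was -0.09 (SE 0.29) without E12 replicate 3.

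Of the 118 genes, 86 were above background on all 6 arrays, 6 on all E13 arrays and fewer E12 arrays, and 9 on all E12 arrays and fewer E13 arrays. The other 17 were above background on fewer than 3 arrays of each stage, and 12 of those 17 were not tested because no stage had them above background on every array. The rest of the 17, Jag2, Mfng, Fzd5, Fzd8 and Ivl, were tested because every array of a later stage had them above background. Tead1, named for this pattern after its values were seen, was the 1 gene above background on 0 of 3 E13 arrays and 3 of 3 E12 arrays. Its signals were 3115, 1136 and 1075 at E13, against limits of 3301, 1286 and 1137, and 1606, 2037 and 1208 at E12, against limits of 1487, 1918 and 1208. All 6 signals thus lay close to the limits. The E12 mean did not exceed the detection limit of the E13 arrays, so no fold is given, and the fitted difference was -0.21 (SE 0.71). The 12 genes not tested were above background on at most 2 arrays of either stage: Cd44 on 2 of 3 at both, and Fzd10 and Fzd4 on 1 of 3 at E13 and 0 of 3 at E12. Cdkn1b and Map2k7 were so on 2 at E13 and 1 at E12, and Il2ra and Ptch1 on 1 at E13 and 2 at E12. Mmp7 and Shh were so on 1 at each stage, and Pcaf, Pdpk1 and Sh2d1a on 0 at E13 and 1 at E12.

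Differences were also taken within pairs of arrays with the same replicate number, though no label pairs the arrays. In all 3 pairs, 12 of 106 genes (11.3%) were higher at E13 and 15 (14.2%) were lower. Genes of the Notch pathway and its nuclear partners among the 12 were Jag1, Numb, Notch1, Nrarp and Adam10. By list these were 1 of 5 ligands, 1 of 4 receptors, 1 of 7 proteases, 1 of 8 trafficking genes and 1 of 6 co-repressors. The sugar-adding enzymes (0 of 4), Hes and Hey genes (0 of 6) and co-activators (0 of 5) had none. Those among the 15 were Dll4, the co-repressor hr and the co-activator Supt6h, or 1 of 5 ligands, 1 of 6 co-repressors and 1 of 5 co-activators. Whether these shares differ from those over all genes was not tested. The Jag1 pair differences were 0.86, 0.73 and 0.83 and those of Numb 0.82, 0.84 and 0.38, while Fzd2 had -0.24, -1.51 and -0.30 and Krt14 had -0.36, -1.45 and -0.60. Replicate 2 thus held the largest part of the Fzd2 and Krt14 differences.

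At later stages Jag1 had mean log2 values of 13.90 ± 0.25 at E14, 14.43 on 2 arrays of the same rank at E16 and 14.34 ± 0.06 at E18 (SD, n = 2 each), so the E13 mean of 14.29 lay near the late levels and E14 between it and E12. Numb had 12.47 ± 0.10 at E14, 12.33 ± 0.45 at E16 and 12.40 ± 0.29 at E18, all above its E12 mean of 11.93. Krt14 had its lowest mean at E14, 11.78 ± 0.66, and 12.40 ± 0.29 and 13.24 ± 0.25 at E16 and E18. Fos had means of 12.48 ± 0.21 and 11.87 ± 0.42 at E12 and E13 (SD, n = 3 each), 11.90 ± 0.04 at E14, 12.75 ± 0.78 at E16 and 13.75 ± 0.04 at E18. These levels are given as a description, with no test.

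**Figure D5:**
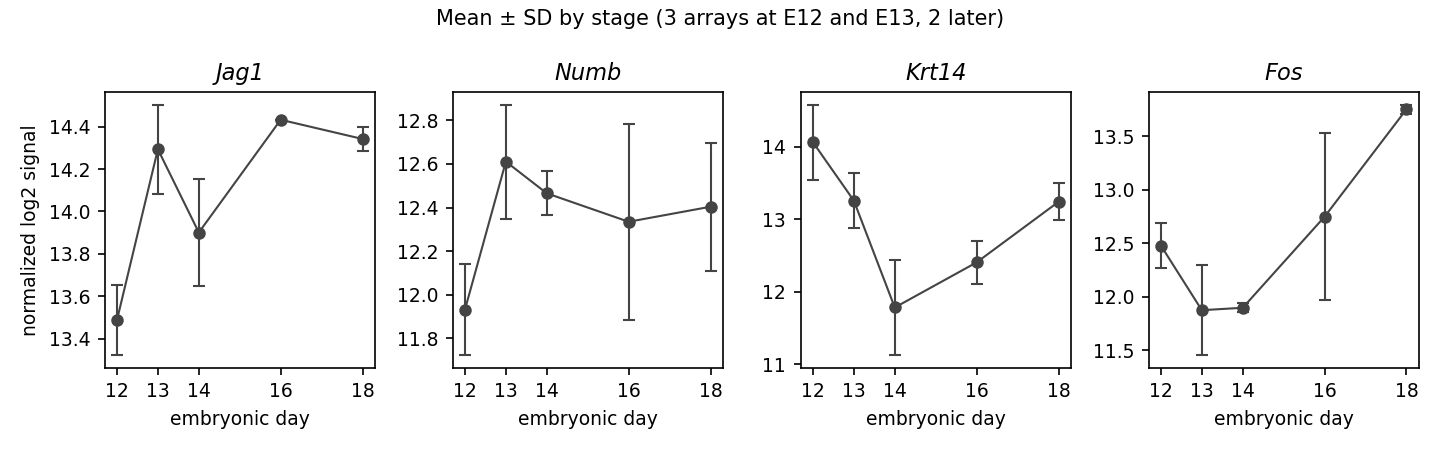
Mean normalized log2 signal (y axis, scaled per gene) of Jag1, Numb, Krt14 and Fos over gestational day (x axis), with the SD between arrays (3 arrays at E12 and E13, 2 at later stages). Jag1 and Numb have their lowest mean at E12, Krt14 at E14 and Fos at E13 (11.87, beside 11.90 at E14, a gap smaller than the SD).

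The housekeeping genes Rps27a, B2m and Hsp90ab1 differed by 0.07 (SE 0.12), 0.03 (SE 0.13) and -0.02 (SE 0.09). Quantile normalization fixes the set of values on each array, which leaves genes at the top of the range little room to rise. With no normalization the median difference over all genes was 0.22 in place of -0.03, and gene differences under that setting are to be read against it.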

How the data were processed

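Each array held 128 spots, and the deposited file gave 1 intensity per spot, and the authors' image software is not given in the sources used here. RNA was extracted with TRIzol, and labelling with biotin followed an amplification, per the labels' protocols. Negative controls lay well above 0, so the intensities were taken as not background-subtracted. A deposited table of the whole series gave a ratio per spot: in all but the PUC18 and BLANK rows, each value was the signal minus the lowest spot over the mean Ppia signal minus the lowest spot (tolerance 1e-04). It served as an alternative.

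BAS2C spots, named among the background controls of the selection rule, were bright positive controls and were left out of the background. Background was corrected by normexp (offset 50, all spots). Gene spots were put on the log2 scale and quantile-normalized, and duplicate spots were averaged. The test was limma (version 3.58.1, R version 4.3.3), fitted to all 12 arrays with a mean for each stage, with Benjamini-Hochberg adjustment over 106 genes (7 residual and 1.72 prior degrees of freedom). The script was tested on simulated data. The number of arrays limits the precision. No scan or slide batch was given.

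Same-numbered E13 and E12 arrays had small positive correlations of their deviations from the stage mean (r of 0.122, 0.163 and 0.222). Arrays of unlike numbers had r from -0.238 to 0.0923. Replicate 1 had the highest mean negative controls at E13, E14, E16 and E18, at 2985, 1745, 2324 and 3495. The other arrays of those stages had 772.5 to 1049. At E12 replicate 2 had the highest, 1581, against 1099 and 918. Whether the replicate number marks a batch was not tested. No label says that the numbers pair the arrays, and the correlations above are weak ground for it. The main fit therefore left pairing out, and the replicate block and the same-numbered pairs are given only beside it. None of the 15 pairs of arrays had identical signals.

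Genes were named by this rule: any past the threshold, the 10 smallest p, all genes of the 6 core Notch lists, the 2 smallest p of every other list, the housekeeping genes, and up to 5 non-overlapping genes per direction. 1 gene that the rule takes is not reported here, and it stayed in every fit and count. Members and lists were chosen with earlier results of these data known. Names are those of the array; 115 of 118 matched RefSeq by accession.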

Additional observations from a re-analysis of the deposited data

How the results depend on the processing

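The count of genes past the test was 0, and 1, in each case Jag1, with no background correction, among genes above background on all 6 arrays and with a prior that follows the signal, where Jag1 differed by 0.76, 0.81 and 0.81. Under the other 17 settings the count was 0, leaving out each array in turn included. The replicate block gave 0 genes past the test with all arrays (7 with an unadjusted p under 0.05, against 5 without it) and 0 with the 2 stages alone, so it changed no call; the Jag1 difference was 0.81 and 0.80. The fit without E13 replicate 1 and E12 replicate 2, the arrays of highest background, was chosen after seeing the data and gave 0 genes, with Jag1 at 0.67 (limma adjusted p = 0.5). Over the 61 genes of the naming rule, 103 of 1202 values under other settings changed sign, none of them past the threshold. Of the 103, 27 came with housekeeping scaling or no normalization and 76 with the other settings. Housekeeping scaling and no normalization shift every gene alike only against scaling to array medians, not against the main setting. Adam17, Pofut1, Sel1l and Numbl turned with array medians too. Leaving out 1 array turned the sign of 21 of the 61 genes at least once. The cause was not tested for any of these changes, though fits without arrays hold fewer arrays. Signal over background, from 2.81 to 7.02, limits the dim genes most.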
